A study of Mus musculus with 2 samples.

Results

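Nduf genes encode the nuclear subunits of respiratory complex I, the NADH:ubiquinone oxidoreductase of the mitochondrial inner membrane, and a set of factors that help assemble it. The genes described here are all protein-coding genes whose symbol starts with Nduf in the mouse GENCODE annotation, a choice that uses the name and no measured value. There were 46 of them among the 21474 protein-coding rows and 43346 gene rows of the deposited tables. By symbol they fell into 3 Ndufv, 8 Ndufs, 14 Ndufa, 10 Ndufb, 2 Ndufc, 1 Ndufab and 8 Ndufaf genes, the last being assembly factors and the other 38 subunits. Among the subunits, 7 are the conserved nuclear core and 31 are accessory. Another 4 rows with an Nduf symbol are processed pseudogenes and are treated apart from the 46 genes.

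Complex I oxidises NADH, passes the electrons through a flavin and a chain of iron-sulfur clusters to ubiquinone, and pumps protons across the inner membrane. The core subunits carry the cofactors and the quinone site in the arm that reaches into the matrix, the mitochondrial genome encodes the proton-pumping core of the membrane arm, and accessory subunits surround both. In maturing erythroid cells mitochondria serve haem synthesis, and they are later removed.

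Poly(A) RNA was sequenced as paired ends from G1E-ER4 cells, an immortalized mouse erythroid line without working GATA1 of its own, into which GATA1 was returned as an estrogen-receptor fusion. Both libraries came from cells given 10 nM 17beta-estradiol, which activates the fusion, for 30 h. They are replicates 1 and 2 of 1 group from 1 line, with no untreated cells among the samples used here. The data therefore describe levels in induced cells and hold no contrast of treatment. The labels do not say whether the replicates came from separate cultures, so the spread between them may be technical.

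The 2 libraries held 73681318 and 56056404 expected counts in replicates 1 and 2, of which the Nduf genes took 296391 and 199520 counts (0.402% and 0.356%). Of all TPM (transcript levels scaled for length and depth to a fixed total), they took 0.747% and 0.684%, a mean of 0.716% ± 0.0448 (SD, n = 2). All 9 erythroid marker genes reached 1 TPM in both libraries, at summed levels of 225723 and 231822 TPM. Of the markers of other cell types, 3 of 5 megakaryocyte genes reached 1 TPM in both libraries, with sums of 21.8 and 17.8 TPM. None of 6 myeloid, 4 lymphoid, 4 fibroblast or 3 muscle genes did. The myeloid sum was 0.31 TPM in replicate 1 and 11.02 TPM in replicate 2, with S100a8 at 0 in both, and its part in any difference between the libraries was not tested. In a bulk culture, fewer cells with a transcript and less transcript per cell cannot be told apart.

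Nearly every Nduf gene was detected, over a wide range of levels. At 1 TPM or more in both libraries were 45 of the 46, against 35.3% of all protein-coding genes, the exception being Ndufaf7. With protein-coding transcripts alone, Ndufaf6, Ndufaf4 and Ndufa5 also fell under 1 TPM in replicate 2. At 100 TPM or more in both were 19 Nduf genes, against 4.32% of protein-coding genes, and all 19 were subunits. Under 10 TPM in both were 10 genes, of which 5 are subunits (Ndufa4, Ndufb3, Ndufa9, Ndufa5 and Ndufs4) and 5 are assembly factors (Ndufaf6, Ndufaf1, Ndufaf4, Ndufaf5 and Ndufaf7). The highest and lowest mean levels differed 4165-fold over all 46 genes and 738-fold over the subunits, from Ndufab1 to Ndufs4. The 5 highest genes together held 48.2% ± 4.68 (SD, n = 2) of the TPM of all 46.

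**Figure D1:**
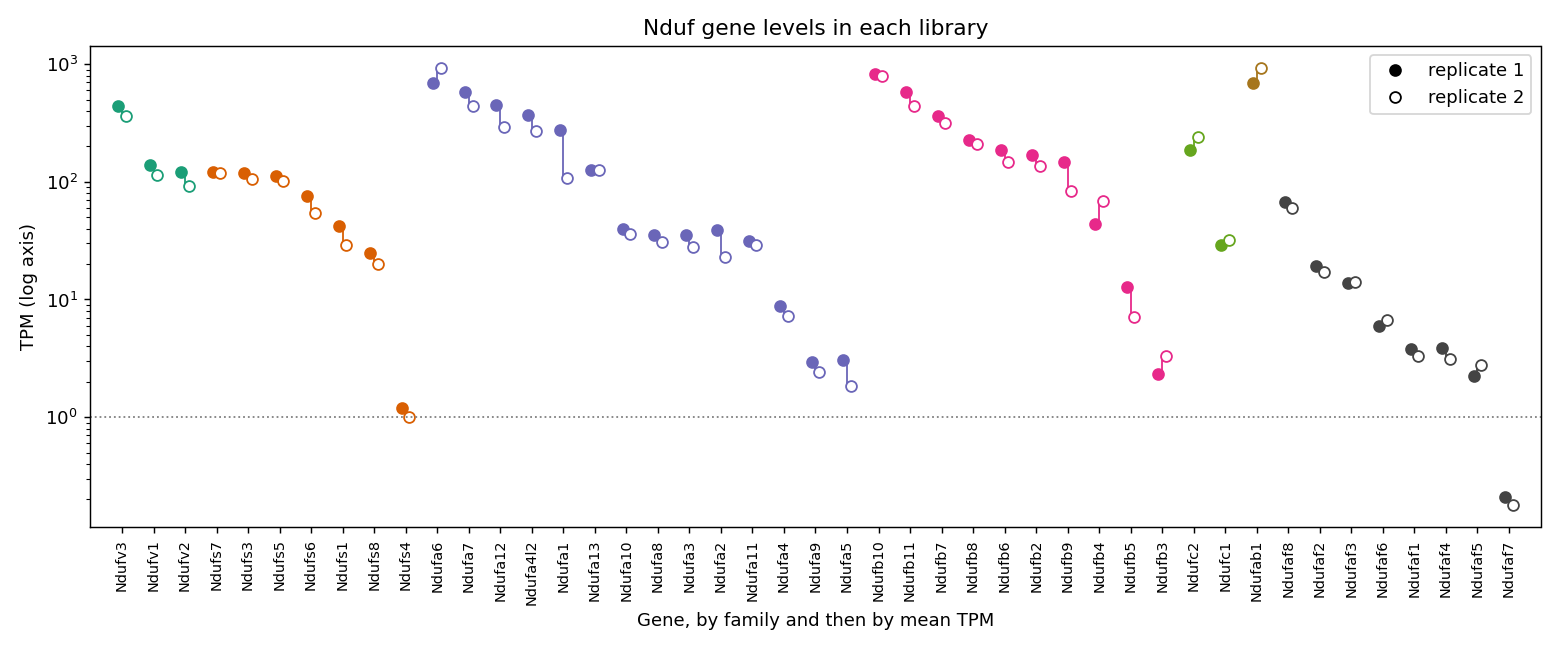
TPM of 45 of the 46 genes (log axis) in replicate 1 (filled) and replicate 2 (open), grouped and coloured by family and ordered by mean TPM within it; the dotted line marks 1 TPM. Each family of 8 or more genes spans more than 100-fold, and only Ndufaf7 lies under the line.

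When the 46 genes were put in order of mean TPM, 32 of the 45 neighbouring pairs had ranges that overlapped between the 2 libraries. The other 13 pairs were apart. Ranges pool the libraries, so an overlap leaves the order unresolved by this rule only. Ndufa7, at 578 and 441 TPM, overlapped Ndufv3, at 442 and 366 TPM, yet was higher in both libraries. By the same rule Ndufab1, Ndufa6 and Ndufb10 formed an unresolved top group, separated from Ndufb11 and the genes after it. Within that group Ndufab1 was above Ndufa6 in both libraries. At the lower end Ndufs4 lay below Ndufa5 and Ndufaf7 below Ndufs4 without overlap, while the 6 genes from Ndufaf1 to Ndufa5 were linked by overlapping neighbours.

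Among the core subunits, Ndufv1, which binds NADH and the flavin, had the highest mean, at 139 TPM in replicate 1 and 114 TPM in replicate 2, of which its protein-coding transcripts held 16.4 and 15.4 TPM. Ndufs7, which holds the terminal iron-sulfur cluster next to the quinone site, had 122 and 119 TPM. Ndufv2, an iron-sulfur subunit beside Ndufv1, had 121 and 92.1 TPM. Ndufs3, a scaffold subunit of the quinone module, had 118 and 106 TPM, within the ranges of Ndufv1 and Ndufv2 in part and below both values of Ndufs7.

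Lower in both libraries were other core subunits. Ndufs1, the largest iron-sulfur subunit of the NADH-oxidising module, had 42.0 and 29.2 TPM, and Ndufs8, a ferredoxin-like iron-sulfur subunit, had 24.8 and 20.1 TPM. The core genes as a group did not stand above the accessory genes, with median levels of 118 and 92.1 TPM for the core and 125 and 102 TPM for the accessory subunits. On the log2(TPM + 1) scale the median of the core minus that of the accessory subunits was -0.08 and -0.15 (mean -0.12 ± 0.05, SD, n = 2).

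Accessory subunits of the Ndufs and Ndufv families included both ends of the range. Ndufv3, an accessory subunit of the NADH-oxidising module, was the highest of its family, at 442 and 366 TPM. Ndufs4, an accessory subunit of the same module whose loss causes Leigh-like disease in mice, was the lowest of all subunits, at 1.19 and 1.01 TPM from 122 and 79 counts. Ndufs5, on the intermembrane side, had 112 and 102 TPM, and Ndufs6, a zinc-binding subunit, had 75.9 and 54.1 TPM.

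The Ndufa family, which spreads over the matrix arm and the base of the membrane arm, ran from Ndufa6 to Ndufa5. Ndufa6, a LYR-motif subunit that binds the acyl carrier protein, had 689 and 924 TPM in the same order of libraries. Ndufa7 followed at 578 and 441 TPM and Ndufa12, a paralog of the assembly factor Ndufaf2, at 452 and 289.8 TPM. Ndufa1, a small membrane subunit encoded on the X chromosome, had 277 and 108 TPM, the largest ratio between the libraries of any of the 46. Ndufa13, also called GRIM-19, was level at 125 TPM in both libraries. The next 5 (Ndufa10, Ndufa8, Ndufa3, Ndufa2 and Ndufa11) lay between 22.9 and 39.7 TPM.

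The low end of the Ndufa family held Ndufa4, described below, Ndufa9 and Ndufa5. Ndufa9, a nucleotide-binding subunit near the quinone site, had 2.92 and 2.40 TPM from 254 and 158 counts. Ndufa5, a matrix-arm subunit, had 3.03 and 1.83 TPM from 111 and 42 counts. The counting error of such genes is larger than that of Ndufa6, which had 20796 and 20525 counts.

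Ndufab1, the mitochondrial acyl carrier protein that also serves fatty acid and iron-sulfur cluster synthesis, had the highest mean of all, 812 ± 168 TPM (SD, n = 2), with 693 TPM in replicate 1 and 931 TPM in replicate 2. Its partner Ndufa6 had 806 ± 166 TPM and its other LYR-motif partner, Ndufb9, had 147 and 83.8 TPM. Ndufab1 and Ndufa6 were both higher in replicate 2, whereas Ndufb9 was higher in replicate 1.

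The Ndufb family holds accessory subunits of the membrane arm. Over all transcripts its median, 177 and 141 TPM in replicates 1 and 2, was highest of the families with 3 or more genes. With protein-coding transcripts alone the Ndufv median stood above that of Ndufb. After removal of the trend of level with GC content it did so in replicate 1 but not in replicate 2. Ndufb10 led the Ndufb family at 818 and 786 TPM, followed by the X-linked Ndufb11 at 578 and 441 TPM. Ndufb7, Ndufb8, Ndufb6 and Ndufb2 lay between 136 and 365 TPM in both libraries. Ndufb3, a small membrane subunit, was the lowest at 2.34 and 3.31 TPM, and Ndufb5 had 12.9 and 7.15 TPM. Of the paired Ndufc subunits, Ndufc2 had 185 and 238 TPM and Ndufc1 had 28.8 and 32.1 TPM.

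Ndufa4 carries an Nduf name, although its protein is now placed in cytochrome c oxidase, and Ndufa4l2 is its hypoxia-inducible paralog. The labels give no oxygen level. Ndufa4l2 stood at 369 TPM in replicate 1 and 268 TPM in replicate 2, whereas Ndufa4 had 8.72 and 7.20 TPM. Ndufa4l2 was therefore 42.3-fold and 37.2-fold higher in TPM in the same libraries. On the log2(TPM + 1) scale, which understates the change of low genes, the difference was 5.14 ± 0.15 (SD, n = 2). The transcripts differ in GC content, 59.0% for Ndufa4l2 and 43.8% for Ndufa4, and after removal of the trend of level with GC over all expressed genes the difference on that scale was 3.45.

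Assembly factors were the low family. Their median was 4.90 TPM in replicate 1 and 4.99 TPM in replicate 2, under that of all protein-coding genes at 1 TPM or more (15.7 and 14.9 TPM). Ndufaf8, which stabilises Ndufaf5, was the only one above 20 TPM, at 67.1 and 59.6 TPM. Ndufaf2, the Ndufa12 paralog that holds its place in late assembly, had 19.4 and 17.1 TPM. Ndufaf3, which acts with Ndufaf4 on the early quinone module, had 13.8 and 14.2 TPM.

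The other 5 were below 10 TPM. Ndufaf6, needed for early assembly around Nd1, had 5.94 and 6.63 TPM, of which its protein-coding transcripts held 0.09 and 0.28 TPM. Ndufaf4 had 3.85 and 3.15 TPM, so it stood below its partner Ndufaf3 in both libraries. Ndufaf1, part of the membrane-arm assembly complex, had 3.80 and 3.34 TPM. Ndufaf5, an enzyme that hydroxylates Ndufs7, had 2.24 and 2.79 TPM. Ndufaf7, a methyltransferase, had 0.21 and 0.18 TPM from 33 and 22 counts.

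On the log2(TPM + 1) scale the median of the 38 subunits exceeded that of the 8 assembly factors by 4.37 in replicate 1 and 4.09 in replicate 2 (4.23 ± 0.20, SD, n = 2), which is 20.7-fold and 17.0-fold in TPM + 1. After removal of the trend of level with GC content the mean difference was 3.14. Levels of the groups overlapped, since 5 subunits stood among the 10 lowest genes. With 1 group of 2 libraries no test of this difference was made.

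Assembly factors of complex I with other names were also low, at median levels of 8.89 and 6.58 TPM for the 8 of 9 listed genes found in the tables. Tmem70 was the highest of these, at 30.3 and 32.5 TPM, and Acad9, which works with Ndufaf1, was the lowest, at 1.37 and 1.34 TPM.

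**Figure D2:**
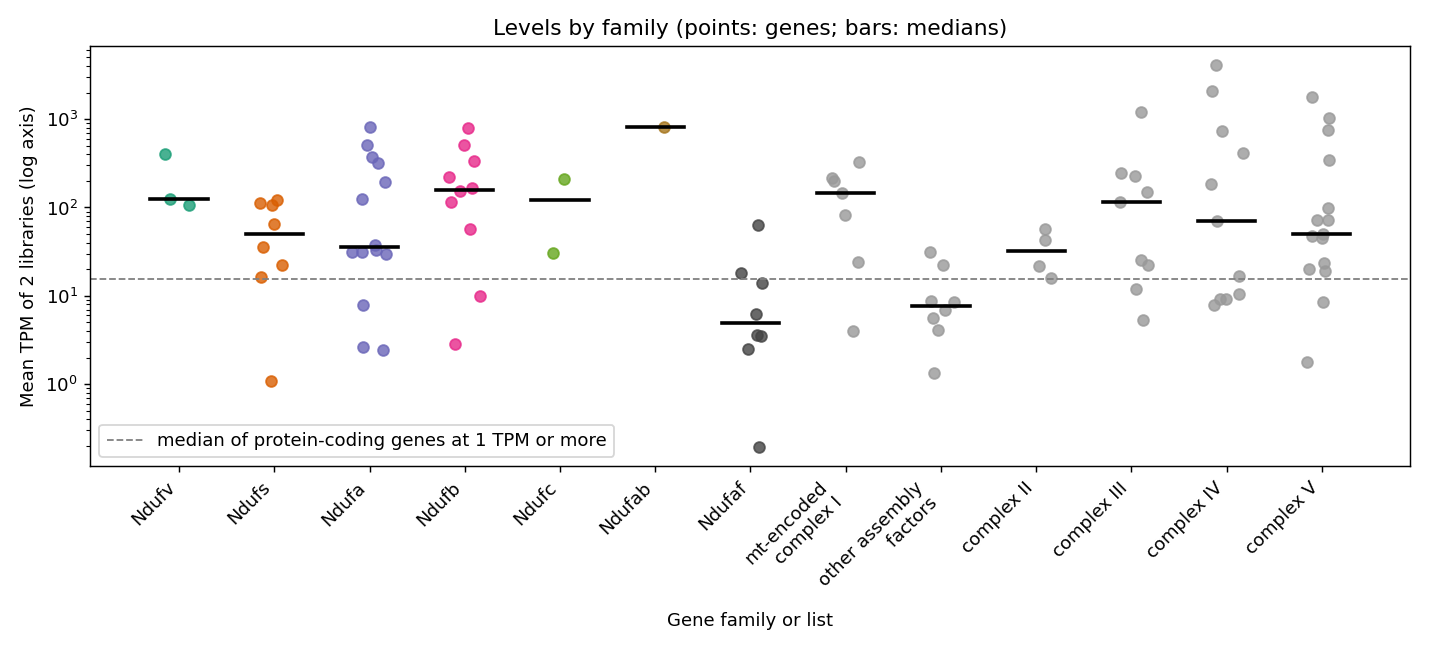
Mean TPM over the 2 libraries (log axis) of each gene, by Nduf family (coloured) and for other respiratory gene lists (grey), with black bars at the medians and a dashed line at the median of protein-coding genes at 1 TPM or more. The bar of the Ndufaf family and that of the other assembly factors lie under the line, and those of the subunit families lie above it.

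The 7 mitochondrially encoded complex I subunits, which build the proton-pumping membrane arm, had median levels of 167 and 125 TPM, beside 119 and 97.2 TPM for the nuclear subunits. They were mt-Nd1 at 305 and 342 TPM, mt-Nd5 at 249 and 145 TPM, mt-Nd2 at 216 and 221 TPM and mt-Nd4 at 167 and 125 TPM. Below these came mt-Nd4l at 58.1 and 107 TPM, mt-Nd3 at 29.4 and 19.3 TPM, and mt-Nd6, the one encoded on the other strand, at 4.98 and 3.02 TPM. Poly(A) selection can act differently on mitochondrial and nuclear transcripts, and its part in these levels was not tested.

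The lists of complexes II, III, IV and V held 4, 9, 11 and 15 nuclear genes, and that of complex IV left out Ndufa4. Median levels of the listed genes were 38.3 and 27.5 TPM for complex II and 105 and 128 TPM for complex III. They were 76.9 and 63.8 TPM for complex IV and 57.4 and 49.6 TPM for complex V. Complex II ran from Sdhb at 63.1 and 52.3 TPM to Sdhd at 18.7 and 13.5 TPM, and complex III from Uqcr11 at 1174 and 1209 TPM to Uqcrc2 at 5.37 TPM in both. Complex IV ran from Cox6a1 at 3597 and 4586 TPM to Cox7a2 at 9.83 and 5.76 TPM, and complex V from Atp5b at 1549 and 2051 TPM to Atp5e at 1.84 and 1.73 TPM.

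Of 8 respiratory chain forms known for restricted tissue use, 3 reached 1 TPM in both libraries: Ndufa4l2, Cox6b2, otherwise known from testis, at 613 and 515 TPM, and the heart and muscle form Cox7a1. At 0 counts in both were Cox4i2, Cox8b, Cox8c and Cox7b2, so that each lies under a floor of 3 counts (0.0407 CPM in replicate 1 and 0.0535 CPM in replicate 2). Among 9 regulators of respiratory genes, Yy1 was the highest at 102 and 115 TPM, and the coactivator Ppargc1a was at 0 counts in both.

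The TPM of several Nduf genes came largely from transcripts that are not annotated as protein-coding. Among 24 genes at 10 TPM or more with at least 2 listed transcripts, 23 had the same leading transcript in both libraries, Ndufv1 being the exception. In 7 of these 24 the leading transcript is a retained-intron or processed transcript, and the same held for 10 of all 46. In those 10 genes the protein-coding transcripts held less than 50% of the TPM in both libraries. Short transcripts weigh more in TPM than in counts. By expected counts 6 of the 24 were led by such a transcript, since the protein-coding ENSMUST00000106223 held 61.5% and 70.1% of the counts of Ndufaf8. Ndufa5, at a lower level, was led by its protein-coding transcript in replicate 1, with 67.2% of the counts, and had 49.6% on it in replicate 2.

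Ndufb10 was led by the retained-intron transcript ENSMUST00000129451 (834 bases), with 96.9% of its TPM in replicate 1 and 97.1% in replicate 2. Its protein-coding transcripts held 22.9 and 20.8 TPM, which moves it down to rank 29 of 46. Of the bases of that transcript 80.8% lie in exons of protein-coding transcripts of the same gene. Fragments within those bases may not be told apart, and their share was not counted. Ndufab1 was led by the retained-intron transcript ENSMUST00000146022 (443 bases), with 92.0% and 93.4%, and 67.0% of its bases are shared. The protein-coding transcripts of Ndufab1 held 55.6 and 60.4 TPM, for rank 17. By expected counts its main protein-coding transcript, ENSMUST00000123296, held 27.4% and 23.9%.

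Ndufa12 was led by ENSMUST00000125379 (428 bases), with 97.0% and 95.9%, and its protein-coding transcripts held 13.8 and 11.8 TPM. In Ndufs3 the processed transcript ENSMUST00000152059 (707 bases) held 70.3% and 68.8%, and the protein-coding transcripts 31.7 and 30.5 TPM. Ndufv1 was split between ENSMUST00000150852, with 46.0% and 39.4%, and ENSMUST00000148283, with 41.3% and 46.4%. Its protein-coding transcripts held 16.4 and 15.4 TPM, for rank 32. The other members of the 10 were Ndufb2, Ndufaf8, Ndufaf6, Ndufaf4 and Ndufa5.

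**Figure D3:**
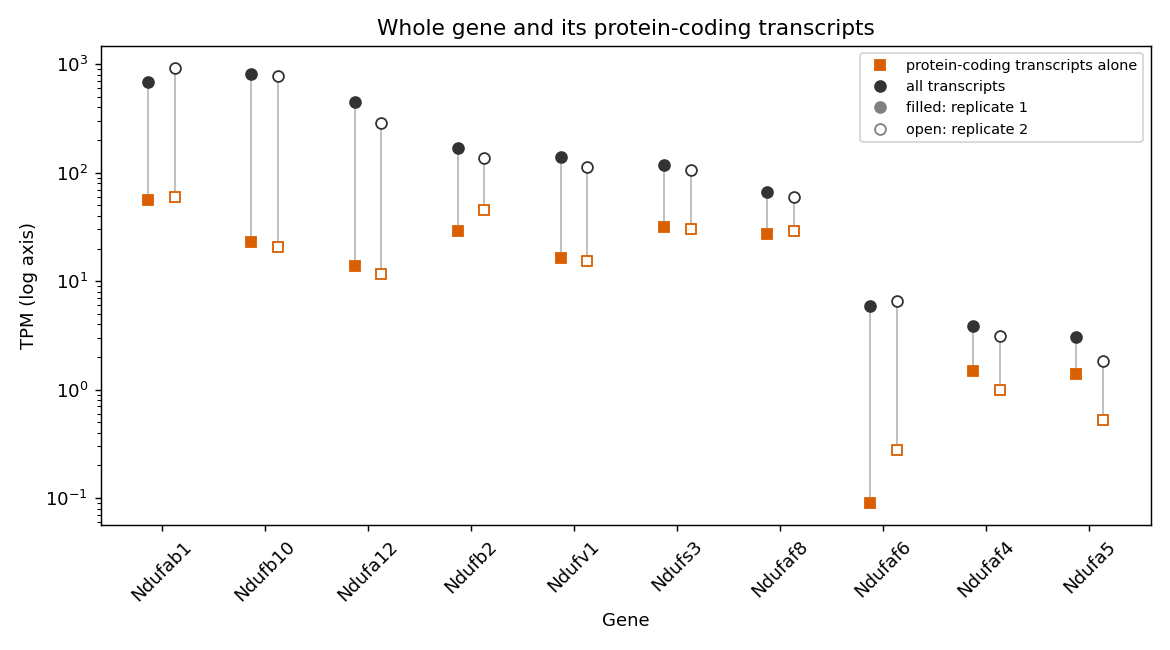
TPM (log axis) of the whole gene (circles) and of its protein-coding transcripts alone (squares) in replicate 1 (filled) and replicate 2 (open), for the 10 genes whose protein-coding transcripts hold less than 50% in both libraries. The gap is widest in Ndufb10, Ndufa12, Ndufab1 and Ndufaf6.

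Genes with a single listed transcript are free of this split, and 16 of the 46 had one, Ndufa6 and Ndufb11 among them. By protein-coding transcripts alone, a setting added once the data had been seen, Ndufa6, Ndufb11 and Ndufa7 ranked highest. On that reckoning subunits exceeded assembly factors by 3.76 on the log2 scale, and the core minus accessory difference was -0.62.

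Some genes were split between coding transcripts instead. Ndufb6 gave 50.9% of its TPM to ENSMUST00000095128 in replicate 1 and 88.8% in replicate 2, the rest going to its other coding transcript, ENSMUST00000108108. In Ndufv3, known for a short and a long protein form, the 485-base transcript ENSMUST00000064798 held 74.2% and 86.0% and the 1537-base transcript ENSMUST00000046288 held 12.2% and 11.6%.

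Ndufb4, a membrane-arm subunit on chromosome 16, has an identical copy of its coding sequence that leaves its level uncertain. Its level was 44.0 TPM in replicate 1, from 2671 expected counts, and 68.8 TPM in replicate 2, from 3145. The processed pseudogene Ndufb4c (GRCm38, chr15:73809507-73809896, minus strand) had 1310 and 1209 TPM, from 22947 and 15102 counts. Ndufb4c is 390 bases long and matches the whole 390-base coding sequence of Ndufb4, which covers positions 95 to 484 of a 971-base transcript, at 390 of 390 bases. The first 90 bases of both are shown, 5′ to 3′ in the sense direction and with no capitals because there are no differences to mark, to let the identity be seen.
Ndufb4: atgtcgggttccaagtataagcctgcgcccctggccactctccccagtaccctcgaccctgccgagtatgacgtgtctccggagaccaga
Ndufb4c: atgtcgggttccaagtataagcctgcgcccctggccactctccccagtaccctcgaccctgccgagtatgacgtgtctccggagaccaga
No fragment inside that stretch can be assigned by its sequence, so the counts of the pair are an estimated division. Ndufb4c took 89.6% of the counts of the pair in replicate 1 and 82.8% in replicate 2. With all counts of the pair placed on the length of Ndufb4, its level would be 422 and 399 TPM. This is an upper limit only for the counts of this pair and only at that length. The levels of both rows, each at its own length, sum to 1354 and 1278 TPM. Other transcript lengths and counts held by other rows were not tested. Fractional counts, a sign of such division, were found in 5 of the 46 genes (Ndufab1, Ndufa12, Ndufs3, Ndufs5 and Ndufb4), and the other 41 had whole counts within 0.005.

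The remaining pseudogenes with an Nduf symbol took few counts: Ndufab1-ps had 1.76 and 1.99 TPM, and Ndufa11b and Ndufs6b were at 0 counts in both libraries.

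The 46 genes lie on 17 chromosomes, so they share few neighbours. The closest pair was Ndufs8 and Ndufv1, 94.6 kb apart on chromosome 19. Exons of 19 of the 46 overlap exons of another gene, in 3 on the same strand and in 17 on the opposite strand. The widest such overlaps were 65.6% of the exon bases of Ndufaf2 with B230220B15Rik, 39.0% of Ndufb6 with Smim27 and 30.0% of Ndufa13 with Tssk6. The sources used here do not say whether the counting used strand, so reads of such pairs may not be told apart.

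Promoter sequences (RefSeq, GRCm38.p6, 250 bases before to 50 after the start) were matched for 40 of the 46 genes and searched on both strands for 6 motifs. The NRF1 motif, GCGCA followed at once by its reverse complement, was in 3 of 40 (7.5%), against 0.977% of all 27025 promoters and 2.65% of those of expressed genes, and the genes were Ndufa11, Ndufaf4 and Ndufaf5. The YY1 motif AAGATGG was in 8 (20%), against 6.48% of all and 9.03% of expressed genes. The ERR motif TGACCTT was in 3 (7.5%), against 4.66% and 2.83%.

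The remaining 3 motifs had these shares, and none of the differences in share was tested. The ETS motif CCGGAAG was in 6 (15%), against 9.12% of all and 24.0% of expressed genes. The SP/KLF motif GGGCGG was in 21 (52.5%), against 35.9% and 69.7%. The GATA motif AGATAA was in 2 (5%), Ndufa12 and Ndufc2, against 11.4% and 5.69%. No motif contains another, and a match describes letters, not binding.

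The promoters of the highest and the lowest subunit are shown for their contrast in base composition, 61.7% GC for Ndufab1 (chr7:122101799-122102098, minus strand) and 45.3% GC for Ndufs4 (chr13:114388045-114388344, minus strand). Capitals mark a match to any of the 6 motifs, here an SP/KLF match on the reverse strand in Ndufab1 and a YY1 match just after the start in Ndufs4.
Ndufab1: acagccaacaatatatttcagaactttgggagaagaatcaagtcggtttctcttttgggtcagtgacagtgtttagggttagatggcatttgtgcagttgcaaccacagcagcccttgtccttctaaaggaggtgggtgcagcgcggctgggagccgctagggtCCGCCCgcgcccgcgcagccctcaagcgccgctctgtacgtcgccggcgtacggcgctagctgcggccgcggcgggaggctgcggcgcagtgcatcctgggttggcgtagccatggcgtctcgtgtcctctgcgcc
Ndufs4: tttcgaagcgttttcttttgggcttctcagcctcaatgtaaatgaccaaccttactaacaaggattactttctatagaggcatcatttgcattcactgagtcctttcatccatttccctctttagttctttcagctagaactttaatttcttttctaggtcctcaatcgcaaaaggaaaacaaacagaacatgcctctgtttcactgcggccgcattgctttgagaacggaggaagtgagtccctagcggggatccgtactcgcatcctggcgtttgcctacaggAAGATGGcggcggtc

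Level went with base composition among the Nduf genes, as it did among other genes. Across the 46 genes, mean log2(TPM + 1) and transcript GC content had Pearson's r = 0.42 and Spearman's rho = 0.39, beside 0.30 and 0.30 over 7570 expressed protein-coding genes. Both are correlations across genes of the same 2 libraries, and genes are not independent replicates. With the genes cut by GC content into 3 groups, the lowest (15 genes, 41.5% to 48.4%) had a median of 3.85 TPM in replicate 1 and 3.34 TPM in replicate 2, and 9 of the 10 genes under 10 TPM were there. In the middle group of 15 genes the medians were 75.9 and 68.8 TPM, and in the highest group of 16 genes (53.4% to 60.4%) they were 132 and 116 TPM. Expressed genes in the same GC ranges had medians of 9.25 and 8.38, 14.7 and 13.8, and 27.6 and 26.6 TPM.

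Level also went with transcript length, with r = -0.41 over the 46 genes and -0.30 over expressed genes. Ndufab1 (45.5% GC) and Ndufa6 (48.2% GC) stood high despite low GC content. Removing the GC trend left the order of the Nduf genes much as it was (r = 0.97 between adjusted and unadjusted levels) but reduced the subunit excess over assembly factors, as given above. The part of GC and length in the levels was not tested beyond these values.

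**Figure D4:**
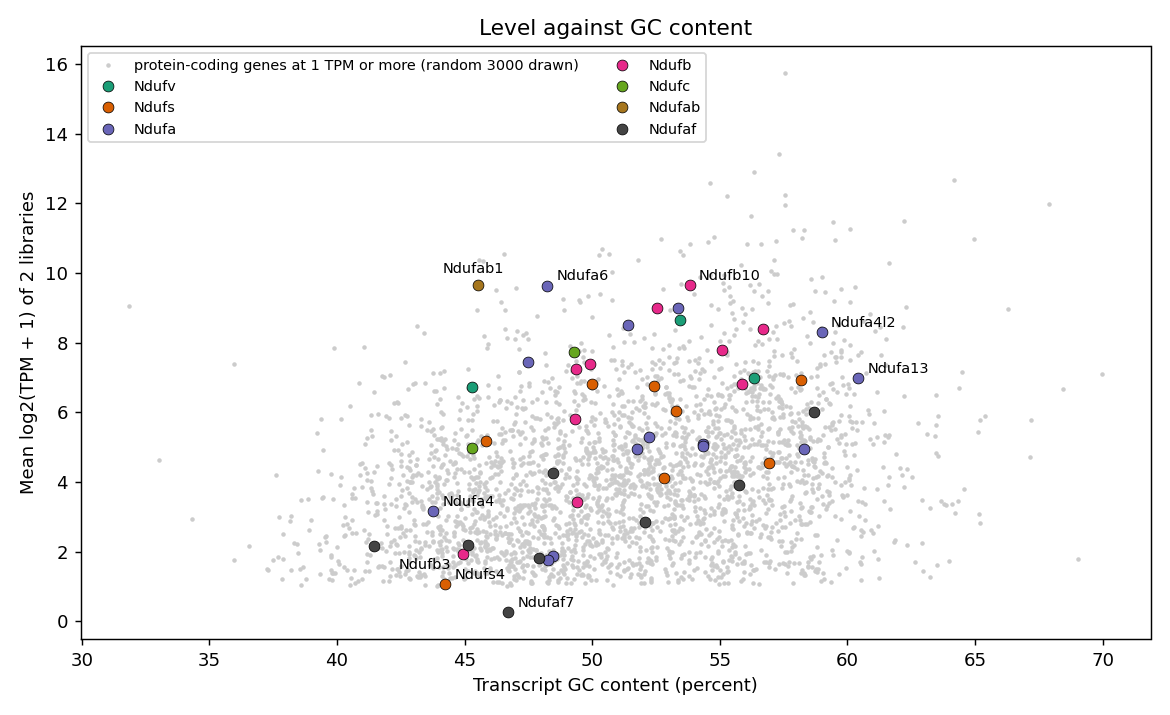
Mean log2(TPM + 1) of the 2 libraries against transcript GC content (percent), for the 46 Nduf genes (coloured by family) and a random draw of expressed protein-coding genes (grey). Of the 10 Nduf genes under 10 TPM, 9 lie in the group of 15 with the lowest GC, while Ndufab1 and Ndufa6 are high at low GC.

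Since both libraries belong to 1 group, a difference between them measures reproducibility. The counts of each gene were set against TMM-scaled library sizes with a two-sided exact binomial test, with Benjamini-Hochberg adjustment over 10445 genes. The test covers counting error only and compares these libraries, not conditions. At adjusted p under 0.05, 32 of the 46 Nduf genes (69.6%) were called, against 59.2% of all genes tested. Of these, 25 (54.3%) were higher in replicate 1, against 29.2% of all genes, and 7 (15.2%) were higher in replicate 2, against 30.0%. The 59.2% includes genes with few counts, and with at least 100 summed counts it was 66.2%, beside 33 of 45 Nduf genes. Among 7570 protein-coding genes at 1 TPM or more, 2431 were called higher in replicate 1 and 2781 in replicate 2. The other 2358 were not called, so the share of Nduf genes called is not read as an excess. The median log2 ratio was 0.17 over the Nduf genes and 0.01 over all genes tested. With at least 1.5-fold required as well, 7 Nduf genes (15.2%) were called, against 12.3% of all genes. Of these 7, 6 were higher in replicate 1 (background 8.35%) and 1, Ndufb4, in replicate 2 (background 3.93%). The counts of Ndufb4 are an estimated division, as given above.

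By role, 24 of the 38 subunits were higher in replicate 1 and 6 in replicate 2. The core subunit Ndufs7 was among those not called. Of the 8 assembly factors, Ndufaf1 was higher in replicate 1, Ndufaf6 in replicate 2, and 6 were not called. Whether a gene is called also depends on its counts. Ndufaf5, at a log2 ratio of -0.34 from 123 and 113 counts, was not called, whereas Ndufa13, at -0.07 from 10127 and 7689 counts, was. The mitochondrially encoded subunits were 4 higher and 3 lower in replicate 1, and all 4 complex II genes were higher in replicate 1. Over all genes tested, 29.2% were higher in replicate 1 and 30.0% in replicate 2. With at least 100 summed counts 66.2% were called in either direction, so these counts are not read as traits of a group.

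Ndufa1 differed most, with 5444 counts in replicate 1 and 1534 in replicate 2 (log2 ratio 1.36, adjusted p = 6.64e-271 by the exact binomial test). It was followed by Ndufa5 at 0.94, Ndufb9 at 0.78, Ndufa2 at 0.75 and Ndufb5 at 0.68. In the other direction Ndufb4 had 2671 and 3145 counts (log2 ratio -0.70, adjusted p = 1.06e-74 by the exact binomial test). Ndufb4 and Ndufb4c together had 25618 and 18247 counts, with 89.6% on Ndufb4c in replicate 1 and 82.8% in replicate 2. The test took no account of this division, so the call does not show a difference in the Ndufb4 transcript. Next were Ndufb3 at -0.54, Ndufaf6 at -0.53, Ndufa6 at -0.44 and Ndufc2 at -0.38. Ndufb3, Ndufaf6 and Ndufa5 rest on 42 to 112 counts in a library. With library totals in place of TMM, which shifts the median gene by 0.07, the split was 30 higher and 6 lower in replicate 1, and Ndufa13 lost its call and turned from -0.07 to 0.0029.

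**Figure D5:**
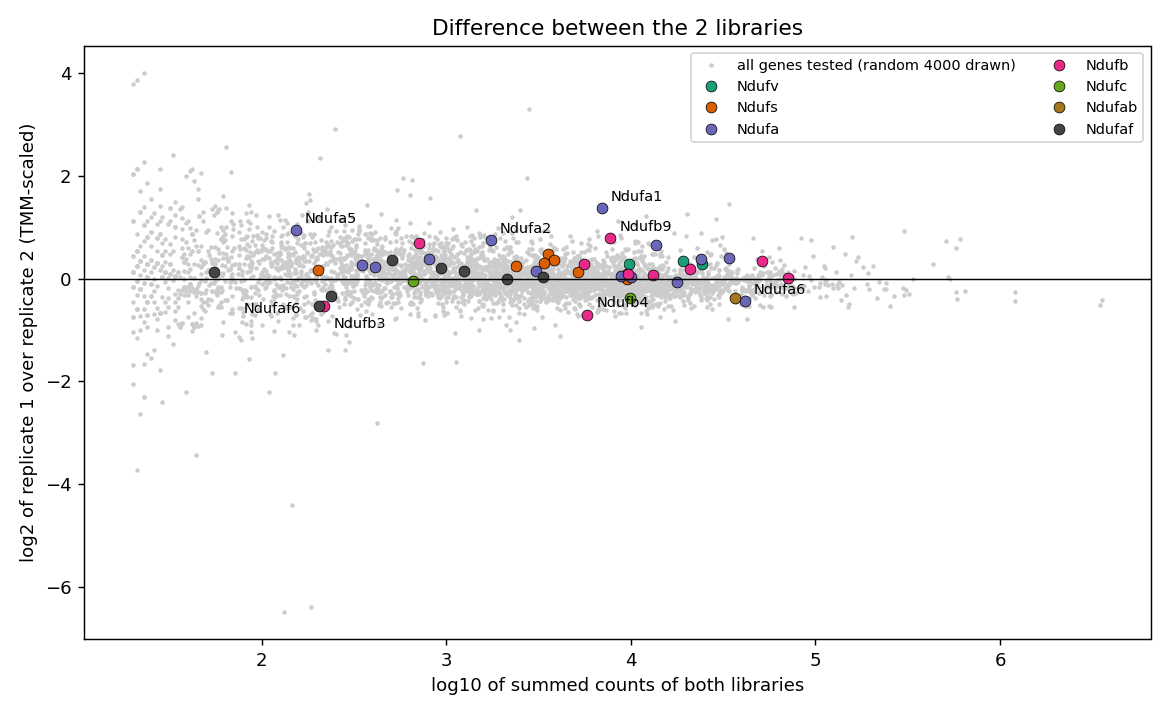
Log2 ratio of replicate 1 over replicate 2 (TMM-scaled) against log10 of the summed counts, for the 46 Nduf genes (coloured by family) and a random draw of all genes tested (grey). Ndufa1 stands highest at 1.36 and Ndufb4, whose counts are an estimated division, lowest at -0.70. Most Nduf points lie above 0.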

How the data were processed

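The authors deposited, for each of 2 poly(A) RNA-seq libraries, a gene and a transcript table with expected counts, TPM and FPKM. The transcript tables also give each transcript's percent of its gene's TPM, as deposited. Per the deposited description files, values were quantified from transcriptome alignments on mm10 with GENCODE M4. The sources used here do not give the aligner, the counting program or the strand setting. Names, biotypes, exons and GC content were taken from GENCODE M21 by ID, so the coding class of a transcript is that of M21.

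From these, medians of log2(TPM + 1) were taken per family in each library. Expected counts were rounded and compared between the libraries by an exact binomial test (scipy 1.17.1) at TMM-scaled totals (edgeR 4.0.16), with Benjamini-Hochberg adjustment over genes with at least 20 summed counts. DESeq2 1.42.0 size factors, library totals, other count minimums, other TPM scales and a lowess adjustment for GC (span 0.3) were alternatives. The test was checked on simulated data. Values after ± are SDs between the libraries, and floors cover counting error only.

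Every Nduf gene is accounted for. Values in both libraries are given for core subunits (1 gene is not reported here by name), assembly factors, the 5 highest and 5 lowest genes, the extremes of each family and the 5 most different in each direction between libraries, with some further genes added after their values were seen. The members and lists were chosen with earlier results of these data known. Sequences are from GENCODE M21 and RefSeq GRCm38.p6. The 4 rows with an Nduf symbol that are pseudogenes were left out of family values.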

Additional observations from a re-analysis of the deposited data

Results flagged for a closer look

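Ndufb4c, a processed pseudogene outside the 46 genes, reached 1310.33 TPM in replicate 1 and 1209.06 TPM in replicate 2, a signal in a row that no family value uses. It exceeded its parent Ndufb4 by 29.8-fold and 17.6-fold in TPM, and by 8.59-fold and 4.80-fold in expected counts. Ndufab1-ps, the other pseudogene above a count of 3, had 1.76 and 1.99 TPM. Because Ndufb4c is identical to the coding sequence of Ndufb4, the origin of its counts was not tested.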

How the results depend on the processing

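Main family medians of log2(TPM + 1) were 6.98 (Ndufv), 5.60 (Ndufs), 5.22 (Ndufa), 7.32 (Ndufb), 6.35 (Ndufc) and 2.53 (Ndufaf). With globin and mitochondrial genes taken out of the total they were 7.45, 6.06, 5.68, 7.78, 6.81 and 2.93, and the share of TPM was 0.991%. After GC adjustment Ndufv was 7.33, Ndufa 4.95, Ndufc 6.80 and Ndufaf 2.93, subunits minus assembly factors 3.14 and core minus accessory -0.51. With protein-coding transcripts alone, chosen after the data were seen, Ndufv was 6.73, Ndufs 5.03, Ndufb 6.30, Ndufaf 1.58, subunits minus assembly factors 3.76, core minus accessory -0.62 and the share 0.476%. A pseudocount of 0.1 gave 2.28 for Ndufaf and 4.47 for subunits minus assembly factors, and leaving out genes under 1 TPM gave 2.86 and 3.90. Ndufaf was 2.55 in FPKM and 2.57 by posterior mean TPM. Without replicate 1 or 2, subunits minus assembly factors was 4.09 or 4.37. The sign of both contrasts held under each of these settings, but with protein-coding transcripts alone Ndufv stood above Ndufb. After GC adjustment the Ndufv median stood above that of Ndufb in replicate 1 but not in replicate 2. The cause of each shift was not tested. Requiring 1.5-fold cut the library calls to 7. Ndufa13 turned to 0.0029 with library totals (adjusted p = 0.928 by the exact binomial test), and Ndufb8 lost its call with DESeq2 size factors (0.055, adjusted p = 0.0555 by the exact binomial test). No paired analysis was possible because there is only 1 group. Depth limits Ndufaf7, Ndufa5, Ndufs4, Ndufb3, Ndufaf6 and Ndufaf5, with 22 to 123 counts in a library.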
